A study of Mus musculus with 9 samples.

Results

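Primary CD4+ T cells of C57BL/6 mice, transduced with retroviral vectors, held 107 genes that a constitutively active form of NFAT2 induced and a form altered at its contact with AP-1 induced less or not at all. These genes were selected on group means of CPM, which gives a gene's reads for every 1000000 reads of its library. A gene was taken if its mean was at least 10 CPM with NFAT2-CA and at least 1.5 times the Control mean, and if its mean with NFAT2-CARIT was at most 0.6 times that with NFAT2-CA. Of the 16500 listed genes, 119 met these thresholds, and 12 were left out by name: 8 single genes and 4 unnamed gene models or pseudogenes. The levels in NFAT2-CA against Control and in NFAT2-CARIT against NFAT2-CA therefore chose the members, and they are given as a description without a test. No threshold was set on NFAT2-CARIT against Control, but both of its means entered the choice, which caps that ratio at 0.6 times the NFAT2-CA to Control ratio. The test of this contrast comes from the fit over all genes and is given gene by gene. It is not independent of the choice of members.

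NFAT2, encoded by Nfatc1, is one of the NFAT transcription factors that calcineurin dephosphorylates when calcium enters a stimulated T cell, after which they move to the nucleus. On many regulatory elements NFAT binds side by side with AP-1, the dimers of Fos and Jun proteins that arise from costimulation, and the pair drives effector genes such as cytokines. Without AP-1, NFAT still binds DNA and turns on other genes, among them genes linked to anergy and exhaustion. The CA substitutions make NFAT active without calcineurin, and the RIT substitutions impair its contact with Fos and Jun.

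The 3 groups were cells with the NFAT2-CA vector, cells with the NFAT2-CARIT vector and cells with a Control vector, each with 3 libraries of paired-end RNA sequencing. All were primary cells of the same strain, grown in the same serum-containing medium. Whether the libraries of a group stand for different animals, different cultures or repeats of 1 preparation is not stated in the labels, and the p-values speak only of the spread among them, which may be technical. They also give no share of cells that carried a vector, and in bulk RNA fewer expressing cells and less RNA per cell cannot be told apart.

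The windows around the transcript starts of 4 members are shown, because these genes had some of the lowest NFAT2-CARIT to NFAT2-CA ratios. They run from 250 bases before to 50 bases after the start, taken from RefSeq on GRCm38.p6, each on the plus strand and written 5′ to 3′. Capitals mark every match on either strand to the NFAT core GGAAA (its reverse complement reads TTTCC) and to the AP-1 consensus TGANTCA. The Abcb4 window is chr5:8893471-8893770, the Chit1 window chr1:134110992-134111291, the Gja1 window chr10:56377050-56377349 and the Jaml window chr9:45078933-45079232.
Abcb4: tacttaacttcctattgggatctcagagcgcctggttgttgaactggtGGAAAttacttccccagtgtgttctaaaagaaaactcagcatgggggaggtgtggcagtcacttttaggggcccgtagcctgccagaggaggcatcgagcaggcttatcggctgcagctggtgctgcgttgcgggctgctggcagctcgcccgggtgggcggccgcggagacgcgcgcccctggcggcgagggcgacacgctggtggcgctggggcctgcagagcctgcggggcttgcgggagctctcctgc
Chit1: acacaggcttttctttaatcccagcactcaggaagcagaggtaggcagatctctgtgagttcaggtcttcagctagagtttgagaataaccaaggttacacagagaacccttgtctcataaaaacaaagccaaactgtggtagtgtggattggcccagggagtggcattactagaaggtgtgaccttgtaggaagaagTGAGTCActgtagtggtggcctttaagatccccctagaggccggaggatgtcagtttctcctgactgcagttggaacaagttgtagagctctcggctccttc
Gja1: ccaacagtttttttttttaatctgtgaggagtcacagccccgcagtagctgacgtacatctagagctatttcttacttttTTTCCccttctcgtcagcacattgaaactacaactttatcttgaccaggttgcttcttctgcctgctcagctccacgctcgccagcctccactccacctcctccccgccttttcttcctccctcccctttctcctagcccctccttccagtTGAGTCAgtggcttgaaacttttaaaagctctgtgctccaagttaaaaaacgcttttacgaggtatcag
Jaml: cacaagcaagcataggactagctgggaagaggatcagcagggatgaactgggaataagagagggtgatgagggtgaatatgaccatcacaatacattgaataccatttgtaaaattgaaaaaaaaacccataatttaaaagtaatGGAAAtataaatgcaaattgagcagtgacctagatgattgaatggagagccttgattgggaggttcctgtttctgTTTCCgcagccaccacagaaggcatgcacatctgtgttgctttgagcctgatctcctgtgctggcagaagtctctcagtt
The Gja1 window held both kinds of match, 1 of each. The Abcb4 window held 1 NFAT core and the Jaml window 2, with no AP-1 match, while the Chit1 window held 1 AP-1 match and no NFAT core. Windows were found by symbol for 85 of the 107 members, 109 windows in all. The NFAT core was in 58 of these (53.2%), against 61.3% of the 32851 windows of all genes and 58.8% of the 8918 windows of tested genes. The AP-1 consensus was in 8 member windows (7.34%), those of Chit1, Cst7, Ddr1, Gja1, Ltbp3, Phyhd1, Scel and Slc37a2, against 7.81% of all windows and 4.72% of those of tested genes. The letters TGACGTCA, the consensus of the cyclic AMP response element to which some bZIP dimers bind, were in 5 member windows (4.59%), those of Arl4d, Nkrf, Pak1, Pogk and Zap70, against 1.79% of all windows and 3.21% of those of tested genes. The AP-1 consensus and TGACGTCA share no match, since their central letters differ in number. A match describes these letters in this window and is not evidence of a binding site.

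Low values lie mostly on multiples of 1 read, and the size of that step put the depth between 19947800 and 38189000 reads per library, so that 10 CPM rests on 199.5 to 381.9 reads. Nfatc1 itself was measured at 342, 336 and 395.5 CPM in the NFAT2-CA libraries, 240.5, 245 and 253 CPM in the NFAT2-CARIT libraries and 224, 228 and 188 CPM in the Control libraries. In NFAT2-CARIT against NFAT2-CA this was a difference of -0.53 ± 0.08 in log2 CPM + 1 (SE, limma adjusted p = 7.2e-05). Whether reads of the vector insert count towards Nfatc1 is not given in the sources used here, and the part of this difference in the results on the members was not tested. CD4 T cell markers (8 of 8 listed, among them Cd3e and Cd4) summed to 6462 to 6842 CPM with NFAT2-CA, 6040 to 6187 CPM with NFAT2-CARIT and 9310 to 9780 CPM in Control. Thy1 alone averaged 649 CPM with NFAT2-CA, 657 CPM with NFAT2-CARIT and 4748 CPM in Control. Without it the sum of the other 7 ran the other way, at 5831 to 6186 CPM with NFAT2-CA, 5392 to 5527 CPM with NFAT2-CARIT and 4770 to 4790 CPM in Control. Not every one of these 7 did so: Cd5 averaged 332 CPM with NFAT2-CA, 370 CPM with NFAT2-CARIT and 518 CPM in Control. CD8 T cell markers (2 of 2 listed) summed to 28.4 to 30.8 CPM with NFAT2-CA, 22.6 to 24 CPM with NFAT2-CARIT and 12.5 to 13.7 CPM in Control. B cell markers (5 of 8 listed, Ms4a1 and Pax5 among those not listed) summed to 207 to 212 CPM with NFAT2-CA, 183 to 206 CPM with NFAT2-CARIT and 413 to 424 CPM in Control, nearly all of it Ighm. The other 4 summed to 1.68 to 2.79 CPM with NFAT2-CA, 1.82 to 4.26 CPM with NFAT2-CARIT and 4.92 to 5.83 CPM in Control. Myeloid and dendritic markers (7 of 12 listed, without Lyz2, Csf1r and Adgre1) summed to 21.4 to 24.9 CPM with NFAT2-CA, 22.8 to 27.8 CPM with NFAT2-CARIT and 19.2 to 21.0 CPM in Control. The one NK marker listed of 5, Klrd1, was at 0.252 to 0.446 CPM with NFAT2-CA, 0.275 to 0.651 CPM with NFAT2-CARIT and 4.85 to 6.62 CPM in Control. None of the 9 mast cell and basophil or 8 granulocyte markers was listed, and 2 of 9 erythroid and platelet markers and 2 of 7 stromal markers were listed, each pair summing to at most 3.27 CPM in any library.

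The 107 members were spread over 20 chromosomes, and 103 were protein-coding genes. The thresholds on group means favour separate libraries, and the share of such genes among all listed genes was not counted. In 105 of the 107 members every NFAT2-CA library lay above every other library. The remaining pair, Rn7s1 and Rn7s2, are copies of the 7SL RNA of the signal recognition particle with nearly the same sequence. Both stood at 6.26, 5.63 and 31.7 CPM in the NFAT2-CA libraries and at 8.76, 8.24 and 3.03 CPM in the NFAT2-CARIT libraries. In Control, Rn7s1 was at 5.89, 8.71 and 2.34 CPM and Rn7s2 at 5.89, 8.71 and 10.4 CPM. Their membership rests on NFAT2-CA replicate 3 alone, their equal values leave the share of each copy uncertain, and without that library neither met the thresholds. The coefficient of variation over the NFAT2-CA libraries had a median of 6.00% and was above 20% in 4 members, this pair, Vamp1 and Phyhd1. In Control, 17 members had a mean under 1 CPM, 40 a mean of 1 to 10 CPM and 50 a mean of at least 10 CPM.

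The median member had 2.78 times its Control level with NFAT2-CA and 0.482 times its NFAT2-CA level with NFAT2-CARIT. Among the 1367 genes that met the first pair of thresholds, the median NFAT2-CARIT to NFAT2-CA ratio was 1.01. The ratio was under 0.25 in 15 members, from 0.25 to 0.5 in 43 and at least 0.5 in 49. Another view of the same values is the share of the NFAT2-CA rise that NFAT2-CARIT kept, that is, NFAT2-CARIT minus Control as a percentage of NFAT2-CA minus Control. The median share was 15.5%, and it ran from -73.2% to 59.0%. It was under 0 in 33 members, whose NFAT2-CARIT mean was below the Control mean, from 0 to 25% in 37, from 25 to 50% in 30 and at least 50% in 7.

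In the limma fit of NFAT2-CARIT against Control, 60 of the 101 members that could be tested were called higher, 19 lower and 22 had no call. Of all 9233 tested genes, 32.1% were higher and 43.3% lower in NFAT2-CARIT than in Control. These counts describe the members and are not support for a pattern among them, since the choice bounds the contrast. The same holds for the counts by role given below, which stand beside these same shares of all tested genes. The filter on low values (10 CPM in at least 3 libraries) admitted 29 members through their NFAT2-CA libraries alone, and it left out Rgs9, Phyhd1, Rn7s1, Rn7s2, Aph1b and Scel. Of these 29, 17 were called higher, 5 lower and 7 had no call. They include Abcb4, Gja1, Trpa1, Slc13a3, Chit1, Angptl2, Fgf11, Nucb2, Tnfrsf13c, Zan, Cd83, Bcam, Lpar6 and Jaml. Pcyt1b, Sox12, Zfp667, Bcar1, Marcksl1, Map9, Ehbp1, Ppfibp1, Gstm1, Poglut3, B3gnt5 and Tango6 are also among the 29. Each entered the test only through the group that its choice rests on, and this limits every p-value given for these genes below. Of the 72 that passed through other libraries as well, 43 were called higher, 14 lower and 15 had no call. Where the NFAT2-CA to Control ratio is under 1.67, a member has to lie below Control with NFAT2-CARIT. That held for 8 members, 5 of the 19 called lower and 3 of the 22 without a call. The median log2 fold change was 0.39 over the 101 members and -0.09 over all tested genes. It was 1.22 (range 0.16 to 4.63) in the 60 members that rose and -0.54 (range -1.33 to -0.16) in the 19 that fell. The sizes are on the log2(CPM + 1) scale, which understates changes of genes that are low in Control. Of the 79 called members, 34 had a value more than 1.5 times larger or smaller under some alternative, 28 of them with a pseudocount of 5. The authors' deposited table, at an FDR under 0.05, gave 51 members as higher and 3 as lower (Sox12, Phactr2 and Ccdc92), where it gave 12.1% of 16477 genes as higher and 13.5% as lower. None of the other falls was called there, nor were the rises of Casp4, E130308A19Rik, Fah, Ier3, Nkrf, Ppfibp1, Ptpn1, Tulp3 and Zfpm1.

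**Figure D1:**
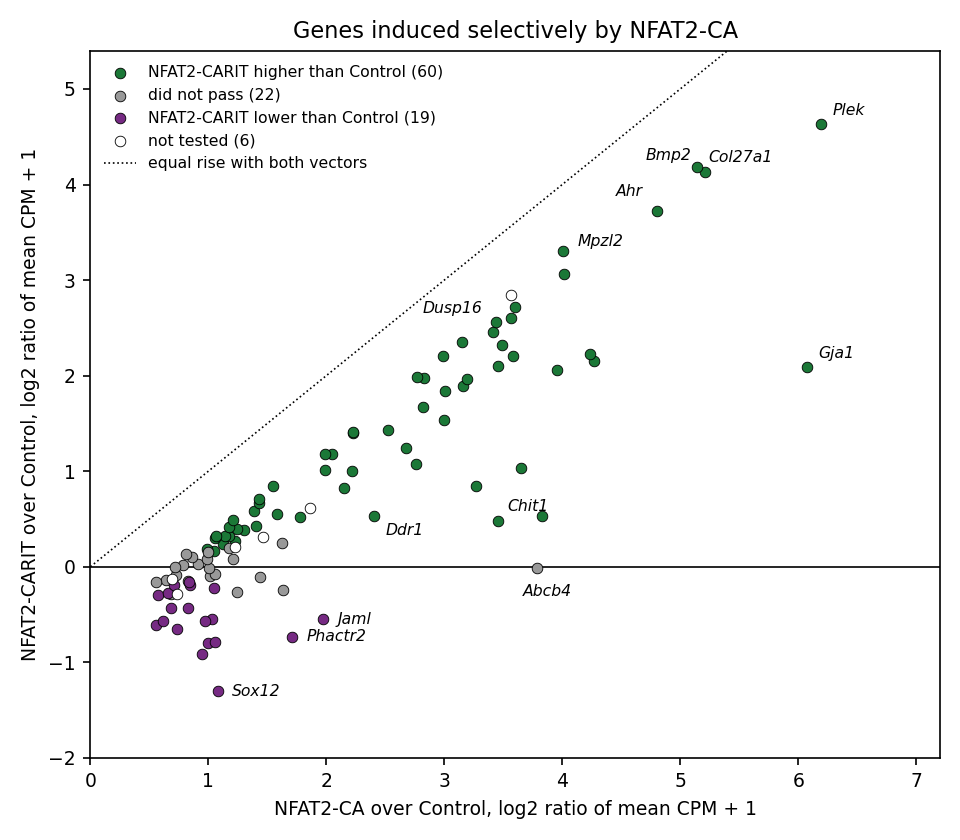
Each point is 1 of the 107 members. The horizontal axis gives the log2 ratio of mean CPM + 1 in NFAT2-CA over Control, the vertical axis the same for NFAT2-CARIT over Control. Colours mark the limma calls for NFAT2-CARIT against Control (60 higher, 22 without a call, 19 lower, 6 not tested). All members lie below the dotted line of equal rise, as the choice of members requires, and Abcb4 and Gja1 lie farthest below it.

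Channels, junctions, transporters and vesicle proteins included the member with the lowest NFAT2-CARIT to NFAT2-CA ratio. Abcb4 encodes a transporter that moves phosphatidylcholine across membranes, known from bile secretion in liver. It was at 15.4, 16.0 and 16.4 CPM in the NFAT2-CA libraries, 0.236, 0.110 and 0.301 CPM in the NFAT2-CARIT libraries and 0.170, 0.252 and 0.25 CPM in the Control libraries. The NFAT2-CA libraries stood far above the others, and the NFAT2-CARIT and Control libraries overlapped, all at or under 0.301 CPM, where 3 reads give 0.0786 to 0.15 CPM depending on the library. The NFAT2-CARIT mean was 0.0135 times the NFAT2-CA mean, and NFAT2-CARIT against Control gave a log2 fold change of -0.01 ± 0.13 (SE, adjusted p = 0.93). The 1 CPM added before the log shrinks any difference at such low levels, so this value cannot show an absence of change. The neighbouring genes Abcb1a and Abcb1b, which encode P-glycoprotein drug transporters, were ordered the other way: Abcb1b averaged 17.7 CPM with NFAT2-CA, 30.2 CPM with NFAT2-CARIT and 56.2 CPM in Control, and Abcb1a 5.52 CPM with NFAT2-CA, 8.39 CPM with NFAT2-CARIT and 22.6 CPM in Control.

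Gja1 encodes connexin 43, the gap junction protein through which cells in contact exchange ions and small molecules. It was at 98.9, 97.1 and 83.9 CPM with NFAT2-CA, 6.23, 3.62 and 4.96 CPM with NFAT2-CARIT and 0.340, 0.441 and 0.417 CPM in Control. No library of one group overlapped with another group. The NFAT2-CA mean was 234 times the Control mean, and NFAT2-CARIT, which kept 4.89% of that rise, was still higher than Control by 2.06 ± 0.14 on the log2 scale (adjusted p = 8.9e-10). That size ran from 0.87 with a pseudocount of 5 to 3.62 in the authors' deposited table, and Gja1 passed the filter only through its NFAT2-CA libraries. Trpa1, a calcium-permeable channel known for sensing irritants in sensory neurons, was at 16.6, 17.9 and 19.1 CPM in the NFAT2-CA libraries, and at 4.03, 3.32 and 3.71 CPM in those of NFAT2-CARIT. It was listed at 0 in all 3 Control libraries, so that NFAT2-CA was at least 154-fold higher than the 0.116 CPM that 3 reads per Control library average. Slc13a3, a sodium-coupled dicarboxylate carrier, averaged 17.3 CPM with NFAT2-CA, 3.92 CPM with NFAT2-CARIT and 0.178 CPM in Control. Of the 9 members in this group, 7 rose with NFAT2-CARIT over Control and Abcb4 and Vamp1 had no call. Mcoln2, a lysosomal cation channel, was at 31.6, 31.7 and 32.8 CPM with NFAT2-CA, 11.9, 13.6 and 13.9 CPM with NFAT2-CARIT and 2.29, 2.36 and 3.17 CPM in Control, all groups apart. Sv2c, a synaptic vesicle protein, and Slc37a2, a sugar phosphate carrier, kept 34.1% and 41.8% of the rise. Vamp1, a vesicle SNARE, was at 84.5, 75.8 and 129.7 CPM with NFAT2-CA, 42.9, 48.6 and 55.1 CPM with NFAT2-CARIT and 53, 59.4 and 67.5 CPM in Control, with NFAT2-CA replicate 3 apart from its group. Without that library Vamp1 no longer met the thresholds, and its NFAT2-CARIT libraries were called lower than Control (-0.29, adjusted p = 0.013; 0.013 to 0.48 over all alternatives), against -0.29 ± 0.20 (adjusted p = 0.21) with all libraries. With all libraries its NFAT2-CA to Control ratio was 1.61, for which the thresholds already place NFAT2-CARIT below Control. Nkg7, a granule protein of cytotoxic lymphocytes, was the member among the 20 Th1 and cytotoxic genes examined: it was at 115, 121 and 114 CPM with NFAT2-CA, 52.8, 48.0 and 53.6 CPM with NFAT2-CARIT and 8.80, 10.2 and 9.37 CPM in Control, groups that did not overlap. The log2 rise of Nkg7 in NFAT2-CARIT against Control was 2.33 ± 0.07 (adjusted p = 4.1e-14). Most of that list ran the other way. Of its 10 tested genes, 3 were higher than Control, 6 lower and 1 had no call, with NFAT2-CA and with NFAT2-CARIT. Of all tested genes, 31.6% were higher and 40.5% lower with NFAT2-CA, and 32.1% and 43.3% with NFAT2-CARIT.

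Secreted and matrix proteins numbered 9, counting Fgf11, which stays inside the cell but was placed here by its family. They kept from -33.8% to 50.3% of the rise, the upper end from Fgf11, with Ltbp3, Cst7 and Nucb2 below Control with NFAT2-CARIT. Chit1, a chitinase that macrophages release, was at 10.7, 11 and 11.2 CPM with NFAT2-CA, 0.602, 0.412 and 0.551 CPM with NFAT2-CARIT and 0.0851, 0.0631 and 0.125 CPM in Control. The Control libraries were at or below 3 reads, and the groups did not overlap. Chit1 rose by 0.48 ± 0.13 in NFAT2-CARIT against Control (log2, adjusted p = 0.0032), a call that was lost with a pseudocount of 5 (0.12, adjusted p = 0.1; adjusted p of 0.0005 to 0.1 over all alternatives). Angptl2, a secreted angiopoietin-like protein, was at 24.9, 26.3 and 25.6 CPM with NFAT2-CA, 3.12, 3.65 and 3.21 CPM with NFAT2-CARIT and 0.637, 1.51 and 1.21 CPM in Control. Here too the NFAT2-CARIT libraries lay between the other groups, 1.05 ± 0.14 above Control on the log2 scale (adjusted p = 4.2e-06; 0.45 to 1.56 over the alternatives).

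Some other members of the secreted and matrix group kept more. Bmp2, a ligand of the bone morphogenetic protein receptors, was at 36.8, 36.9 and 38.9 CPM with NFAT2-CA, 17.9, 18.1 and 15.8 CPM with NFAT2-CARIT and 0, 0.126 and 0 CPM in Control. It rose by 4.13 ± 0.10 in NFAT2-CARIT against Control (log2, adjusted p = 3.8e-15; 2.14 to 8.45 over the alternatives), although NFAT2-CARIT had 0.461 times the NFAT2-CA level. Col27a1, a fibrillar collagen, was at 40.6, 42.9 and 43.2 CPM with NFAT2-CA, 20.9, 20.9 and 21.9 CPM with NFAT2-CARIT and 0.213, 0.252 and 0.208 CPM in Control, a rise of 4.18 ± 0.09 with NFAT2-CARIT over Control (adjusted p = 9e-16; 2.33 to 6.55 over the alternatives). Fgf11, a fibroblast growth factor homologue that stays inside the cell, kept 50.3% of the rise. Ltbp3, which holds latent TGF-beta in the matrix, stood below Control with NFAT2-CARIT: it was at 40.2, 36.6 and 37.4 CPM with NFAT2-CA, 11.8, 12.7 and 12.9 CPM with NFAT2-CARIT and 18.6, 18.9 and 19.2 CPM in Control. Its NFAT2-CARIT libraries all lay below the Control libraries, at a log2 fold change of -0.57 ± 0.07 (adjusted p = 3.2e-06). Cst7, cystatin F, an inhibitor of granule cathepsins, was called lower with NFAT2-CARIT by -0.16 ± 0.06 (adjusted p = 0.025), and that call was lost under TMM factors (-0.10, adjusted p = 0.15) and without any one of NFAT2-CARIT replicates 2 and 3 or Control replicates 1 and 2 (-0.15 to -0.13, adjusted p of 0.066 to 0.094, and 0.0065 to 0.4 over all alternatives). In this group of 9, 6 rose, 2 fell and Nucb2 had no call in NFAT2-CARIT against Control. Nucb2 was called lower without NFAT2-CARIT replicate 1 (-0.46, adjusted p = 0.0081) and with the replicate number as a block (-0.29, adjusted p = 0.034; 0.0081 to 0.76 over all alternatives).

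Surface receptors, adhesion and membrane proteins made up 16 members, of which 11 rose and 3 fell with NFAT2-CARIT over Control. Tnfrsf13c encodes the receptor for the cytokine BAFF and is best known from B cells. It was at 10.1, 12.1 and 10.5 CPM with NFAT2-CA, 0.916, 1.29 and 1.45 CPM with NFAT2-CARIT and 0.170, 0.410 and 0.125 CPM in Control, with the NFAT2-CARIT libraries between the other groups. The part of the B cell markers given above in this result was not tested. Zan, the sperm membrane protein zonadhesin, was at 16.1, 18.4 and 20.3 CPM in the NFAT2-CA libraries, and at 2.93, 3.76 and 3.61 CPM in those of NFAT2-CARIT. Zan was listed at 0 in every Control library, so that NFAT2-CA was at least 158-fold higher than the mean level of 3 reads. Ddr1, a tyrosine kinase receptor for collagen, was at 145, 153 and 141 CPM with NFAT2-CA, 41.7, 39.9 and 36.1 CPM with NFAT2-CARIT and 28.9, 27.7 and 24 CPM in Control. All 3 groups were separate, and NFAT2-CARIT kept 10.3% of the rise, 0.53 ± 0.08 over Control on the log2 scale (adjusted p = 8.3e-06).

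Both members among the 20 coinhibitory and exhaustion genes examined, Btla and Cd200, are also among the follicular helper genes. The coinhibitory and exhaustion list as a whole went both ways in NFAT2-CARIT against NFAT2-CA. Of its 14 tested genes, 5 were higher, 6 lower and 3 had no call, where 15.1% of all tested genes were higher and 18.9% lower. Btla, an inhibitory receptor that binds HVEM, was at 167, 153.5 and 165 CPM with NFAT2-CA, 72.7, 78.7 and 94.0 CPM with NFAT2-CARIT and 38.4, 39.9 and 41.9 CPM in Control. Cd200, a ligand that restrains myeloid cells through its receptor, was at 191.5, 186 and 181 CPM with NFAT2-CA, 113, 99.1 and 94.3 CPM with NFAT2-CARIT and 26.2, 24.7 and 25 CPM in Control. For both genes the NFAT2-CARIT libraries lay between the other groups without overlap, 1.00 ± 0.08 above Control for Btla (log2, adjusted p = 7.8e-09) and 1.97 ± 0.07 for Cd200 (adjusted p = 1.9e-13). Nrp1, a semaphorin and VEGF coreceptor found on thymic regulatory T cells, was the member among 16 regulatory T cell genes. It averaged 26.7 CPM with NFAT2-CA, 11 CPM with NFAT2-CARIT and 4.98 CPM in Control. Of the 13 tested regulatory T cell genes, 3 were higher, 5 lower and 5 had no call in NFAT2-CARIT against NFAT2-CA. Cd83, an activation marker of dendritic cells and lymphocytes, and Cd82, a tetraspanin, also rose with NFAT2-CARIT over Control, by 2.35 ± 0.12 (adjusted p = 3.6e-11; 1.21 to 3.29 over the alternatives) and 0.42 ± 0.05 (adjusted p = 3.1e-06). Ptch1, the hedgehog receptor, kept 40.6% of its rise and Gpr157, a G protein-coupled receptor, 35.8%, while Bcam, a laminin receptor, had no call (-0.16 ± 0.10, adjusted p = 0.17). The 2 smaller falls were those of Lpar6, a lysophosphatidic acid receptor (-0.30 ± 0.10, adjusted p = 0.01), which was lost under quantile normalization (-0.16, adjusted p = 0.12; 0.01 to 0.68 over all alternatives), and of Aplp2, a relative of the amyloid precursor protein (-0.18 ± 0.06, adjusted p = 0.012), which was lost under TMM factors (-0.13, adjusted p = 0.071) and without Control replicate 1 (-0.14, adjusted p = 0.07; 0.00077 to 0.35 over all alternatives). Aplp2, Lpar6 and Bcam had NFAT2-CA to Control ratios of 1.64, 1.56 and 1.525, for which the thresholds already place NFAT2-CARIT below Control.

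**Figure D2:**
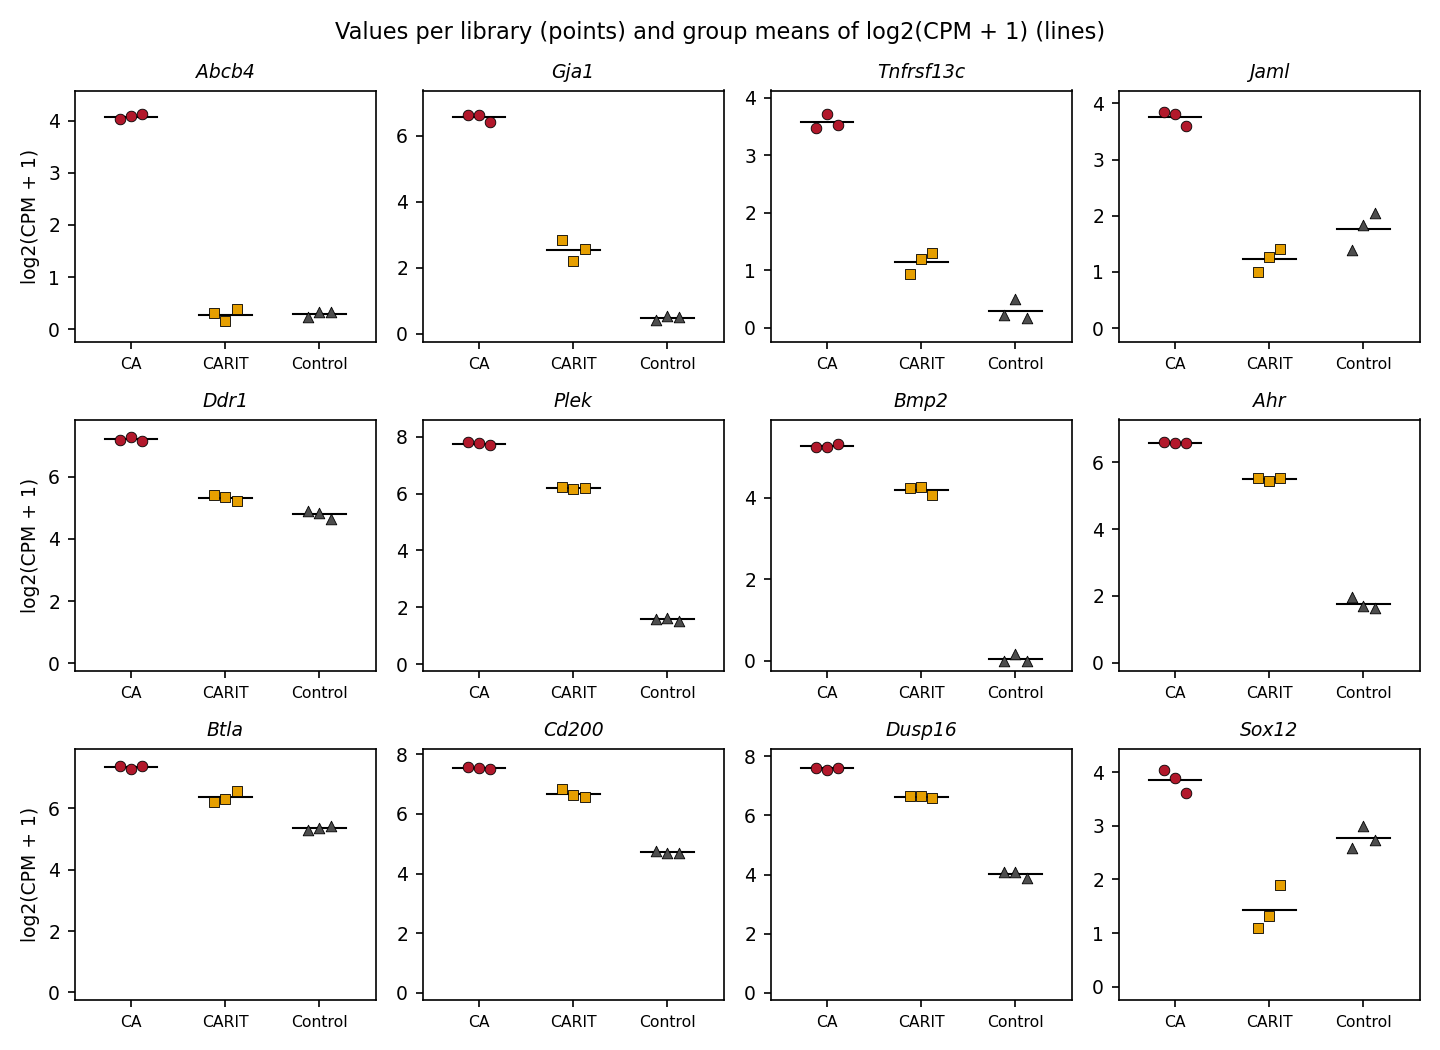
Each panel shows 1 member, with log2(CPM + 1) on the vertical axis and the 3 libraries of NFAT2-CA (circles), NFAT2-CARIT (squares) and Control (triangles) as points; lines are group means. NFAT2-CA is highest in every panel. For Abcb4 both NFAT2-CARIT and Control are at very low levels. NFAT2-CARIT is below Control for Sox12 and between the other groups for Plek, Bmp2, Ahr, Btla, Cd200 and Dusp16, while for Jaml the NFAT2-CARIT and Control libraries overlap.

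Jaml, an adhesion molecule of the junctional family, lies in a run of 3 members on chromosome 9 (mm10, plus strand): Mpzl2 from 45039799 to 45054016, Mpzl3 from 45055186 to 45077437 and Jaml from 45079183 to 45108535, separated by 1170 and 1746 bases. Jaml was at 13.4, 13.1 and 11.1 CPM with NFAT2-CA, 0.995, 1.4 and 1.65 CPM with NFAT2-CARIT and 1.61, 2.58 and 3.12 CPM in Control. Its highest NFAT2-CARIT library reached just above the lowest Control library, and limma called NFAT2-CARIT lower by -0.53 ± 0.16 (adjusted p = 0.0075; over the alternatives -0.86 to -0.23, with adjusted p of 0.00063 to 0.34, the last from the authors' deposited table). Jaml passed the filter only through its NFAT2-CA libraries. Mpzl3, a membrane protein with an immunoglobulin domain, was at 44.1, 42.6 and 41.1 CPM with NFAT2-CA, 19.3, 18.4 and 19.2 CPM with NFAT2-CARIT and 19.5, 20.2 and 20.3 CPM in Control, with no call for NFAT2-CARIT against Control (-0.07 ± 0.07, adjusted p = 0.34). Mpzl2, a homophilic adhesion protein first described in thymus epithelium, was at 17.5, 17.9 and 19 CPM with NFAT2-CA, 12, 10.7 and 9.53 CPM with NFAT2-CARIT and 0.140, 0.252 and 0.167 CPM in Control, and it rose by 3.30 ± 0.11 with NFAT2-CARIT over Control (adjusted p = 1.9e-13; 1.60 to 5.82 over the alternatives). So the 3 neighbours gave 1 fall, 1 absence of a call and 1 large rise in the same contrast. Mpzl2 stood just inside the 0.6 threshold (ratio 0.594) and left the set under TMM factors, under quantile normalization and without NFAT2-CA replicate 3 or NFAT2-CARIT replicate 3. On one side of the run Cd3e, a chain of the T cell receptor complex, averaged 950 CPM with NFAT2-CA, 706 CPM with NFAT2-CARIT and 419.5 CPM in Control, and on the other side Scn2b, a sodium channel subunit, averaged 1.78 CPM with NFAT2-CA, 0.355 CPM with NFAT2-CARIT and 0.825 CPM in Control. How strand was used in counting is unknown, and reads where these genes and Gm48840, which overlaps the ends of Mpzl2 and Mpzl3, share bases may be split between them.

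**Figure D3:**
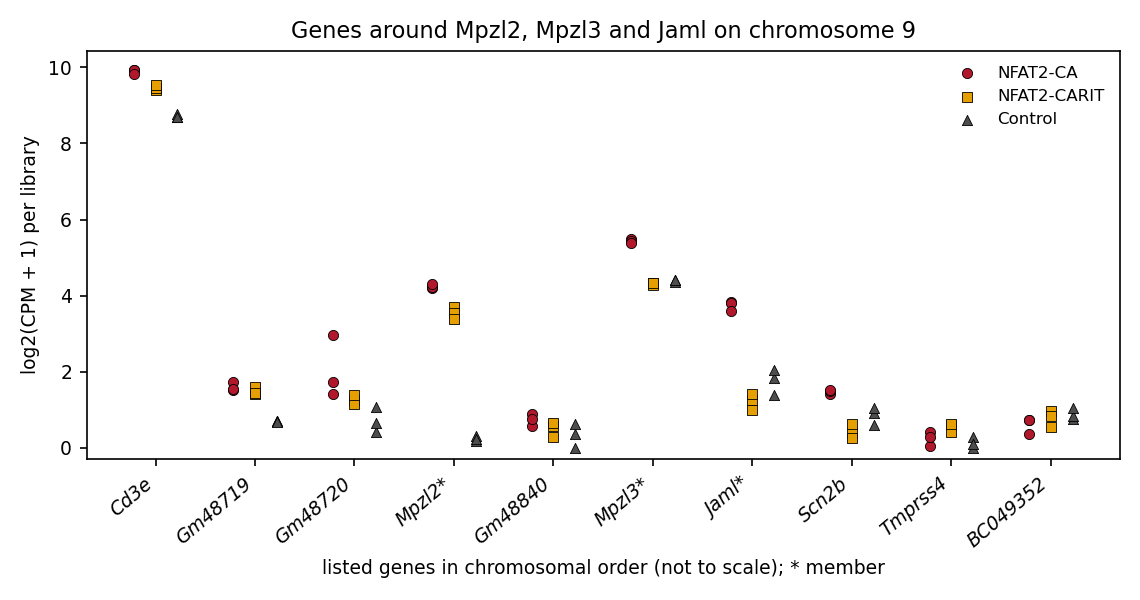
The listed genes around Mpzl2, Mpzl3 and Jaml are set in chromosomal order along the horizontal axis (members with a star, not to scale), with log2(CPM + 1) of each library on the vertical axis. The 3 members are highest with NFAT2-CA; with NFAT2-CARIT, Mpzl2 stays far above Control, Mpzl3 meets it and Jaml overlaps with it.

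In all, 10 pairs of members, made of 19 members, lay within 500 kb of each other, and 3 pairs had no listed gene between them: Mpzl3 and Jaml, Btla and Cd200 (chromosome 16, 124464 bases apart) and Pcyt1b and Pdk3 (chromosome X, 14655 bases apart). Pdk3, a kinase that inhibits pyruvate dehydrogenase, was at 57.4, 53 and 50.05 CPM with NFAT2-CA, 33.0, 30.4 and 30.4 CPM with NFAT2-CARIT and 19.8, 19.6 and 18.5 CPM in Control. Its neighbour Pcyt1b, an enzyme of phosphatidylcholine synthesis, was at 11.2, 10.4 and 11.5 CPM with NFAT2-CA, 1.75, 2.80 and 2.86 CPM with NFAT2-CARIT and 4.84, 5.29 and 4.96 CPM in Control. NFAT2-CARIT was thus above Control in every library for Pdk3 (0.67 ± 0.07, adjusted p = 2.7e-07) and below it in every library for Pcyt1b (-0.81 ± 0.13, adjusted p = 3.4e-05; -1.03 to -0.43 over the alternatives). Pcyt1b passed the filter only through its NFAT2-CA libraries. Other pairs were Fam129a with 1700025G04Rik, Ddr1 with Ier3, Vamp1 with 4930417O13Rik, Etv6 with Dusp16, Rn7s1 with Rn7s2, and Mpzl2 with Mpzl3.

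Transcription and nuclear factors numbered 13, of which 5 rose, 2 fell and 6 had no call with NFAT2-CARIT against Control. Of all tested genes, 32.1% were higher and 43.3% lower in that contrast. Ahr, the aryl hydrocarbon receptor, a ligand-gated factor that takes part in Th17 and regulatory T cell programmes, was at 96.9, 93.2 and 94.7 CPM with NFAT2-CA, 45.2, 42.5 and 45.2 CPM with NFAT2-CARIT and 2.93, 2.27 and 2.08 CPM in Control. Its groups were well apart, with 0.467 times the NFAT2-CA level in NFAT2-CARIT and a rise of 3.73 ± 0.09 over Control (log2, adjusted p = 2e-15). Sox12, a SoxC factor, showed the largest fall: it was at 15.5, 13.7 and 11.3 CPM with NFAT2-CA, 1.13, 1.51 and 2.71 CPM with NFAT2-CARIT and 4.97, 6.96 and 5.62 CPM in Control. Every NFAT2-CARIT library of Sox12 was below every Control library, by -1.33 ± 0.18 on the log2 scale (adjusted p = 1e-05; -1.73 to -0.68 over the alternatives). Sox12 passed the filter only through its NFAT2-CA libraries, and the choice of members used both means. Nab1, a corepressor of Egr factors, was at 183, 183 and 178 CPM with NFAT2-CA, 99.8, 104 and 103 CPM with NFAT2-CARIT and 82.9, 80.9 and 81.0 CPM in Control, and NFAT2-CARIT stood 0.32 ± 0.05 above Control (adjusted p = 2.9e-05). Prdm4, Nkrf and Zfpm1 (also called FOG1, a cofactor of GATA factors) were the other rises, of 0.43, 0.31 and 0.16 on the log2 scale. The Zfpm1 call was lost in 6 of the fits that left out 1 library, with log2 fold changes of 0.10 to 0.17 and adjusted p of 0.051 to 0.17 (0.012 to 0.62 over all alternatives), and the Nkrf call was lost without Control replicate 2 (0.23, adjusted p = 0.056; 0.00046 to 0.62 over all alternatives). Qser1, a nuclear protein that guards DNA methylation valleys, was called lower (-0.22 ± 0.09, adjusted p = 0.029), and that call was lost under TMM factors (-0.17, adjusted p = 0.083), quantile normalization (-0.13, adjusted p = 0.22), and without NFAT2-CARIT replicate 2 or Control replicates 1 and 2 (-0.20 to -0.13, adjusted p of 0.085 to 0.19, and 0.0062 to 0.59 over all alternatives). Etv6, an Ets family repressor, averaged 125 CPM with NFAT2-CA, 63.4 CPM with NFAT2-CARIT and 70.2 CPM in Control and had no call (-0.14 ± 0.07, adjusted p = 0.066), except without Control replicate 3 (-0.22, adjusted p = 0.0025; 0.0025 to 0.59 over all alternatives). The zinc finger genes Zfp568, Zfp667 and Zfp703, the transposase-derived Pogk and the DNA repair gene Hmces had no call either and kept -7.35% to 11.3% of the rise. Zfp667 was called higher under TMM factors (0.25, adjusted p = 0.045), under quantile normalization (0.35, adjusted p = 0.0081) and without Control replicate 3 (0.30, adjusted p = 0.026; 0.0081 to 0.8 over all alternatives). Zfp568, at 35.6, 37.2 and 42.6 CPM with NFAT2-CA, 9.22, 9.42 and 10.6 CPM with NFAT2-CARIT and 12.6, 13.3 and 9.25 CPM in Control, had the lowest ratio among these, 0.254, and its NFAT2-CARIT and Control libraries overlapped. Without Control replicate 3 it was called lower (-0.38, adjusted p = 0.0025; 0.0025 to 0.65 over all alternatives).

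Signalling proteins were the most numerous group, with 18 members, and kept a median of 28% of the rise, the highest median of the 8 groups of members. Plek, pleckstrin, a protein kinase C substrate of platelets and leukocytes, had the largest rise with NFAT2-CARIT over Control on the log2(CPM + 1) scale. By the plain ratio of mean CPM it did not rank first: NFAT2-CARIT over Control was 36.8 for Plek, 94.7 for Col27a1 and 57.7 for Mpzl2. It was at 223, 218 and 206 CPM with NFAT2-CA, 73.9, 71.3 and 72.2 CPM with NFAT2-CARIT and 2.00, 2.08 and 1.83 CPM in Control, so that NFAT2-CARIT was 4.63 ± 0.06 above Control on the log2 scale (adjusted p = 9e-18) at 0.336 times the NFAT2-CA level.

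The members of the list of dual specificity phosphatases and ERK feedback genes were Dusp16, a phosphatase that inactivates JNK, and Spry1, an inhibitor of receptor-driven Ras signalling. Of the 11 tested genes of that list, 3 were higher, 3 lower and 5 had no call in NFAT2-CARIT against NFAT2-CA. In that contrast 15.1% of all tested genes were higher and 18.9% lower. Dusp16 was at 194, 187 and 194 CPM with NFAT2-CA, 98.9, 100.5 and 94.5 CPM with NFAT2-CARIT and 16.1, 16.0 and 13.8 CPM in Control. Spry1 was at 39.7, 41.4 and 39.7 CPM with NFAT2-CA, 17.4, 16.6 and 19 CPM with NFAT2-CARIT and 4.93, 4.10 and 5.57 CPM in Control. Both were intermediate with NFAT2-CARIT without any overlap, and rose over Control by 2.61 ± 0.06 (Dusp16, adjusted p = 4.3e-15) and 1.68 ± 0.10 (Spry1, adjusted p = 1.4e-10). Pstpip2, an F-BAR protein of the myeloid lineage that binds the membrane and actin, averaged 20.8 CPM with NFAT2-CA, 10.2 CPM with NFAT2-CARIT and 0.343 CPM in Control and rose by 3.08 ± 0.15 with NFAT2-CARIT over Control (adjusted p = 2.5e-11; 1.51 to 4.85 over the alternatives). Dtx1, a Deltex ubiquitin ligase that NFAT induces in anergic T cells, was at 37.9, 37.2 and 38.8 CPM with NFAT2-CA, 22.2, 22.3 and 20.4 CPM with NFAT2-CARIT and 4.59, 4.09 and 3.04 CPM in Control. Zap70, the kinase recruited to the T cell receptor, had a modest pattern at a high level: it was at 643, 674 and 598 CPM with NFAT2-CA, 381, 364 and 349.9 CPM with NFAT2-CARIT and 249.8, 240.4 and 241 CPM in Control. Bcar1 (an adaptor of integrin signalling), Sgsm2, Arl4d, Ptpn1 and Ier3 also rose over Control with NFAT2-CARIT, and Pak1 and Pitpnm2 had no call. Pak1 was called lower without Control replicate 3 (-0.20, adjusted p = 0.035; 0.035 to 0.94 over all alternatives). Its NFAT2-CA to Control ratio of 1.598 already places it below Control by the thresholds.

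The signalling proteins that fell were Rassf4, a Ras association domain protein (22.6 CPM with NFAT2-CA, 5.58 CPM with NFAT2-CARIT, 10.4 CPM in Control; -0.79 ± 0.10, adjusted p = 1.9e-06), and Ptpn4, a tyrosine phosphatase. Ptpn4 had -0.27 ± 0.09 (adjusted p = 0.0089) and lost its call under quantile normalization (-0.17, adjusted p = 0.081) and without NFAT2-CARIT replicate 1 (-0.19, adjusted p = 0.059; 0.0026 to 0.55 over all alternatives), and its NFAT2-CA to Control ratio of 1.60 places it below Control by the thresholds. Ier3, an immediate early gene that protects cells from apoptosis, was just inside the 0.6 threshold with 29.5 CPM with NFAT2-CA, 17.6 CPM with NFAT2-CARIT and 12.2 CPM in Control.

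Cytoskeleton and scaffold proteins numbered 13, with 6 rises, 4 falls and 2 without a call among the 12 tested. Phactr2, a regulator of actin and protein phosphatase 1, was at 68.9, 68.2 and 73.3 CPM with NFAT2-CA, 11.7, 11 and 13.7 CPM with NFAT2-CARIT and 22.6, 21.6 and 18.1 CPM in Control. Its NFAT2-CARIT libraries were all below Control, by -0.73 ± 0.09 (adjusted p = 2.4e-06). Cobll1 (-0.60 ± 0.14, adjusted p = 0.00085) and Hip1, which links clathrin coats to actin (-0.57 ± 0.09, adjusted p = 2.8e-05), also fell, and the thresholds already place Cobll1 and Hip1 below Control with NFAT2-CARIT. The other way, Marcksl1, a small MARCKS-like actin regulator, was at 22.6, 22.9 and 23.7 CPM with NFAT2-CA, 7.7, 8.1 and 7.47 CPM with NFAT2-CARIT and 2.21, 2.17 and 1.67 CPM in Control. Map9, a microtubule protein of the spindle, was at 19.8, 17.7 and 18.1 CPM with NFAT2-CA, 7.59, 7.66 and 7.82 CPM with NFAT2-CARIT and 1.49, 1.51 and 1.29 CPM in Control. Both were intermediate in every NFAT2-CARIT library, 1.54 ± 0.10 (Marcksl1, adjusted p = 1.1e-09; 0.86 to 1.94 over the alternatives) and 1.84 ± 0.10 (Map9, adjusted p = 8.5e-11; 0.98 to 2.42 over the alternatives) above Control, and Ehbp1 and Ppfibp1 rose by 1.08 and 0.52 (0.63 to 1.32 and 0.34 to 0.65 over the alternatives). The Ppfibp1 call was lost in the authors' deposited table (FDR 0.31). Ston1 and Mpp7 had no call. Both were called higher under quantile normalization (0.23, adjusted p = 0.024, and 0.26, adjusted p = 0.011), and Mpp7 under TMM factors as well (0.21, adjusted p = 0.034). Over all alternatives the adjusted p ran from 0.024 to 0.91 for Ston1 and from 0.011 to 0.79 for Mpp7. Synpo, synaptopodin, averaged 75.4 CPM with NFAT2-CA, 28.4 CPM with NFAT2-CARIT and 5.38 CPM in Control. Scel, sciellin of the cornified envelope of skin, was at 11.4, 11.9 and 9.06 CPM in the NFAT2-CA libraries, and at 5.37, 5.88 and 7.37 CPM in those of NFAT2-CARIT, and it was listed at 0 in Control. It was not tested, and NFAT2-CA was at least 93.4-fold higher than the mean level of 3 reads.

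Enzymes numbered 17, with 8 rises, 3 falls and 4 without a call among the 15 tested. Gpd2, the mitochondrial glycerol phosphate dehydrogenase, was at 74.0, 75.6 and 68.6 CPM with NFAT2-CA, 39.96, 36.9 and 40.3 CPM with NFAT2-CARIT and 5.05, 6.80 and 5.54 CPM in Control, and kept 49.7% of its rise. Gstm1, a glutathione transferase, was at 11.9, 12.2 and 10.1 CPM with NFAT2-CA, 4.87, 5.68 and 5.66 CPM with NFAT2-CARIT and 0.0426, 0.284 and 0.167 CPM in Control. Both lay between the other groups with NFAT2-CARIT, 2.57 ± 0.09 (Gpd2, adjusted p = 2.2e-13) and 2.46 ± 0.13 (Gstm1, adjusted p = 4.1e-11; 1.01 to 4.99 over the alternatives) above Control. Tpp1, a lysosomal peptidase, was at 356, 342 and 329 CPM with NFAT2-CA, 132, 136.5 and 138 CPM with NFAT2-CARIT and 76.4, 80.9 and 71.3 CPM in Control. Besides Pcyt1b, the falls were Poglut3, a glucosyltransferase of the secretory pathway (-0.44 ± 0.10, adjusted p = 0.00078; -0.51 to -0.29 over the alternatives), and Ide, the insulin-degrading enzyme (-0.19 ± 0.06, adjusted p = 0.0069). Fah and Casp4 had small rises of 0.25 and 0.28 that were lost without single libraries: Fah without NFAT2-CARIT replicates 1 or 2 or Control replicates 1 or 2 (0.19 to 0.24, adjusted p of 0.071 to 0.12, and 0.0013 to 0.71 over all alternatives), and Casp4 without Control replicate 2 (0.20, adjusted p = 0.064; 0.001 to 0.52 over all alternatives). Fdxr, the ferredoxin reductase of mitochondrial steroid synthesis, was at 82.3, 84.9 and 75.3 CPM with NFAT2-CA, 39.2, 40.2 and 37.6 CPM with NFAT2-CARIT and 26.9, 24 and 28.1 CPM in Control, and Sord, sorbitol dehydrogenase, kept 37.7% of its rise. The glycosyltransferase genes B3gnt5 and Alg11, the ceramide synthase gene Cers6 and Echdc1 had no call and kept -9.12% to 9.01%. B3gnt5 was called higher under TMM factors (0.29, adjusted p = 0.019), under quantile normalization (0.38, adjusted p = 0.0039) and without NFAT2-CARIT replicate 2 or Control replicate 3 (0.35 and 0.28, adjusted p = 0.0093 and 0.045; 0.0039 to 0.7 over all alternatives).

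The remaining 12 members were RNA genes, gene models and proteins without a better fit elsewhere. Of these, 3 fell with NFAT2-CARIT against Control: Ccdc92, a coiled-coil protein (26.7, 27.1 and 26.3 CPM with NFAT2-CA, 6.18, 6.78 and 7.01 CPM with NFAT2-CARIT, 13.2, 13.1 and 13.9 CPM in Control), by -0.91 ± 0.08 (adjusted p = 5.1e-08), Fam129a by -0.43 ± 0.06 (adjusted p = 1.6e-05) and 4930417O13Rik by -0.54 ± 0.13 (adjusted p = 0.0015). Another 5 rose, among them 2700097O09Rik by 1.41 ± 0.10 (adjusted p = 1.2e-09), Eif4enif1, which carries eIF4E to the nucleus, by 0.39 ± 0.05 (adjusted p = 7.3e-06) and Tulp3 by 0.31 ± 0.12 (adjusted p = 0.023), lost without NFAT2-CARIT replicate 1 (0.21, adjusted p = 0.13) or Control replicate 2 (0.26, adjusted p = 0.085; 0.0035 to 0.61 over all alternatives). Ankrd46 and E130308A19Rik were the other rises, of 0.38 and 0.32, and Tango6 had no call, except under quantile normalization (0.29, adjusted p = 0.039; 0.039 to 0.89 over all alternatives). 1700025G04Rik was at 125, 129 and 130.1 CPM with NFAT2-CA, 43.5, 43.3 and 42.7 CPM with NFAT2-CARIT and 46.0, 48.4 and 45.7 CPM in Control, without a call (-0.11 ± 0.05, adjusted p = 0.082).

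**Figure D4:**
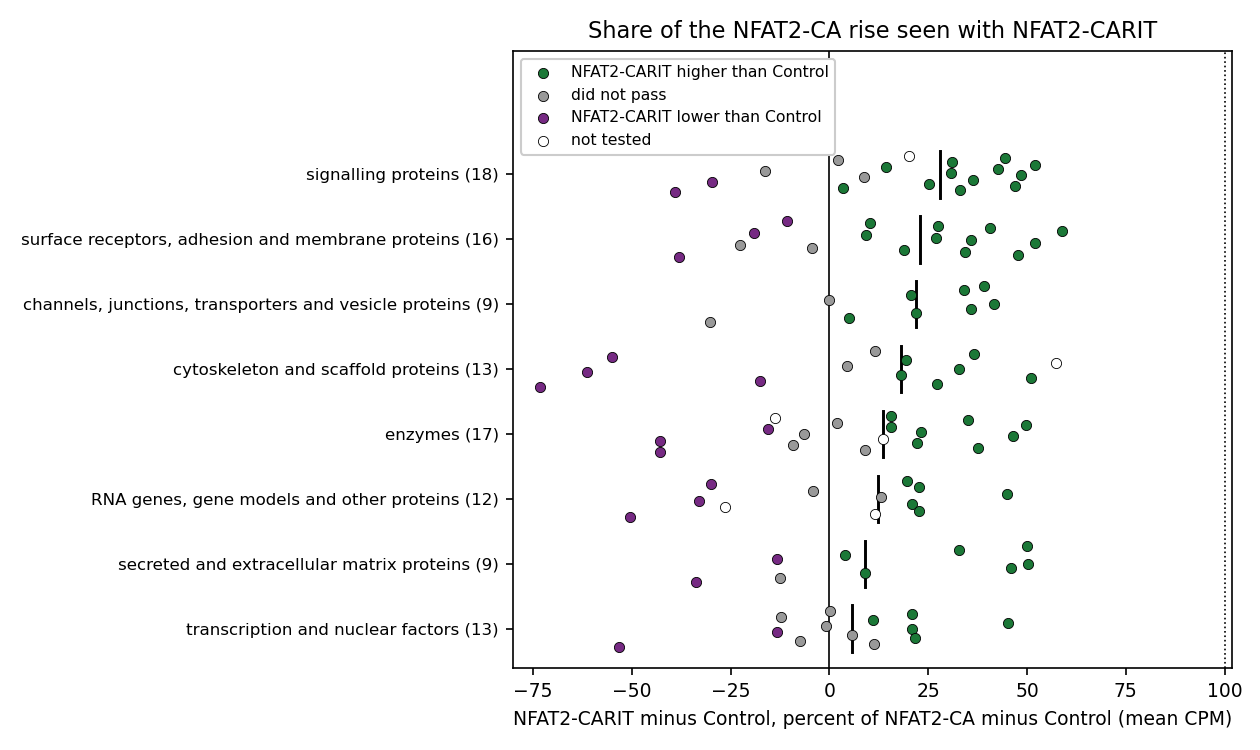
Each point is 1 member, placed by NFAT2-CARIT minus Control as a percentage of NFAT2-CA minus Control (mean CPM), with the members in rows by role (number of members in parentheses) and black bars at the row medians. Medians run from 5.80% for transcription and nuclear factors to 28% for signalling proteins, and the points of every row spread over a range far wider than the distance between the medians. The dotted line at 100% marks an equal rise with both vectors.

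The edges of the thresholds show how the set was bounded. Rgs9, Scel and Aph1b had the lowest NFAT2-CA means inside the set (10.5, 10.8 and 10.9 CPM), and Cd160, Gstt3 and Zbtb32 lay just outside (9.74, 9.64 and 9.48 CPM). Cobll1, Bcam and Hip1 had the lowest NFAT2-CA to Control ratios inside (1.52, 1.52 and 1.56), and Ppp2r3a, Zc3h12d and Mcu lay just outside (1.495, 1.49 and 1.48). Sord, Slc37a2 and Ier3 had the highest NFAT2-CARIT to NFAT2-CA ratios inside (0.6, 0.599 and 0.595), and 2900026A02Rik, Slc29a1 and Atf3 lay just outside (0.602, 0.603 and 0.604).

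The AP-1 subunits and related bZIP factors themselves were measured, since their contact with NFAT2 is what the RIT form alters. Of 21 genes, 15 were tested, and none was a member. In NFAT2-CARIT against NFAT2-CA, 5 were higher (Batf, Atf2, Jdp2, Maf and Mafk), 4 lower (Fosl2, Jund, Atf3 and Maff) and 6 had no call, where 15.1% of all tested genes were higher and 18.9% lower. Fosl2, a Fos relative, was at 868, 879 and 891 CPM with NFAT2-CA, 676, 702 and 659 CPM with NFAT2-CARIT and 197, 194 and 182 CPM in Control. Atf3, which pairs with Jun proteins, was at 63.3, 56.5 and 51.6 CPM with NFAT2-CA, 35.6, 33.9 and 34.1 CPM with NFAT2-CARIT and 4.55, 5.83 and 6.04 CPM in Control. For both genes the NFAT2-CARIT libraries lay between the other groups without overlap, and below NFAT2-CA by -0.37 ± 0.05 for Fosl2 (adjusted p = 7.6e-05) and -0.71 ± 0.10 for Atf3 (adjusted p = 4.2e-05). Batf, a partner of Jun proteins at sites shared with IRF4, was higher by 0.30 ± 0.07 (adjusted p = 0.0032), with libraries at 32.6 to 36.7 CPM with NFAT2-CA, 42.1 to 44.7 CPM with NFAT2-CARIT and 40.03 to 44.9 CPM in Control. Jun varied between libraries (65.0 to 85.3 CPM with NFAT2-CA, 61.2 to 77.7 CPM with NFAT2-CARIT, 61.7 to 184 CPM in Control) and had no call (-0.20 ± 0.38, adjusted p = 0.73). Against Control, 6 of the 15 were higher and 6 lower with NFAT2-CA, where 31.6% of all tested genes were higher and 40.5% lower. With NFAT2-CARIT, 6 were higher and 5 lower than Control, where 32.1% of all tested genes were higher and 43.3% lower.

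**Figure D5:**
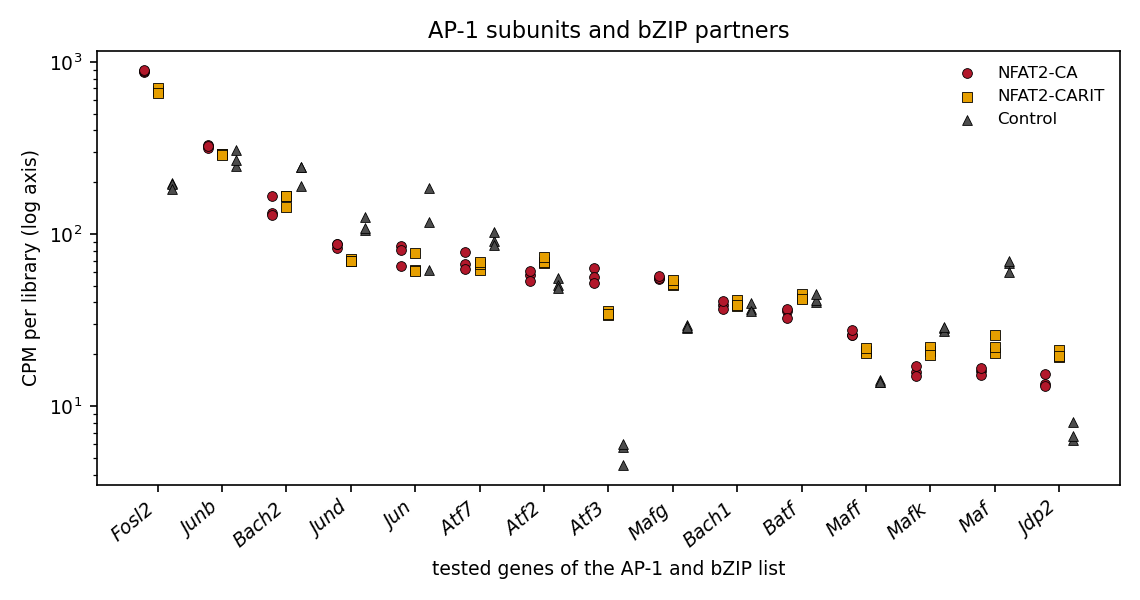
The 15 tested AP-1 and bZIP genes are set out by their mean level with NFAT2-CA, with the CPM of each library on a log axis for NFAT2-CA (circles), NFAT2-CARIT (squares) and Control (triangles). Fosl2 and Atf3 stand far above Control with both vectors and are highest with NFAT2-CA; Maf and Mafk are highest in Control.

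Genes that textbooks give as joint targets of NFAT and AP-1 were also read out. Of 12 such genes 4 reached the filter, none was a member, and all 4 were higher than Control with NFAT2-CA and with NFAT2-CARIT. Of all tested genes, 31.6% were higher than Control with NFAT2-CA and 32.1% with NFAT2-CARIT. In NFAT2-CARIT against NFAT2-CA, Cd40lg, the CD40 ligand of helper T cells, was lower by -0.61 ± 0.06 (adjusted p = 2e-06), with 73.4, 75.8 and 73.2 CPM with NFAT2-CA, 47.4, 51.6 and 46.3 CPM with NFAT2-CARIT and 43.8, 42.2 and 39.9 CPM in Control. Cd69, an early activation antigen, was higher by 0.58 ± 0.10 (adjusted p = 0.00025), with 34.2, 31.9 and 40.7 CPM with NFAT2-CA, 53.6, 52.2 and 54.4 CPM with NFAT2-CARIT and 18.8, 14.9 and 18.7 CPM in Control. Fasl (-0.02 ± 0.08, adjusted p = 0.87) and Il2ra (-0.08 ± 0.05, adjusted p = 0.27) had no call. Of the 13 tested genes of NFAT and calcineurin, 4 were lower in NFAT2-CARIT than in NFAT2-CA, among them Nfatc1, and 9 had no call. In that contrast 18.9% of all tested genes were lower. The count of 4 fell to 2 under TMM factors and without NFAT2-CARIT replicate 1.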

How the data were processed

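Paired-end RNA sequencing gave 9 libraries in 3 groups, as the labels state. The deposited expression values are CPM: each library sums to 1000000, apart from the 0.0001 that the authors put on top of each value. The deposited comparison table of the authors gives a p-value, an FDR, a ratio and its log2 per gene, per the file headers, and a total, a score that equals the sum of the 9 deposited CPM values and was not used; DESeq2, Partek 10 and mm10 are named in the submitters' processing notes. For the aligner, quantifier, annotation and strand setting, the answer is not given in the sources used here, and the values of overlapping or near-identical genes are uncertain. Between 81.3% and 84.5% of values up to 1 CPM were whole reads within 0.1 read, under the 95% needed for a count test, so none was run.

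The members, gene lists and named genes were chosen with earlier results of these data known. Group means chose the members. limma 3.58.1 in R 4.3.3 was fitted to log2(CPM + 1) over all 9 libraries, with a mean per group, trended and robust empirical Bayes, and Benjamini-Hochberg adjustment over the 9233 genes with at least 10 CPM in at least 3 libraries; calls were made at an adjusted p under 0.05. Errors are SE of the log2 fold change. The fit was tested on simulated data. Floors of 3 reads cover counting error only. Promoter windows are from RefSeq (GRCm38.p6); roles were assigned to members from known function after their names were seen. Python 3.11.15 with NumPy 2.4.6, pandas 2.3.3 and matplotlib 3.10.9 was also used. Named were Nfatc1, the AP-1 list, the 12 lowest NFAT2-CARIT to NFAT2-CA ratios, the 12 highest NFAT2-CA to Control ratios, members called lower and the 6 largest called higher in NFAT2-CARIT against Control, up to 4 members per list, those at the thresholds and neighbouring members; other members were named, after their values were seen, as examples of a role. Replicate numbers did not pair the libraries: 2 of 9 same-number correlations passed 0.1. Some genes that this rule names are not reported here.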

Additional observations from a re-analysis of the deposited data

How the results depend on the processing

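The 60 higher and 19 lower members in NFAT2-CARIT against Control stayed within 1.5 times these counts under pseudocounts of 0.5 and 5, filters of 1 CPM and none, TMM factors, quantile normalization and the 6 libraries compared. A filter of 50 CPM left 35 members, with 24 higher and 6 lower. The authors' deposited table gave 51 higher and 3 lower. Leaving out 1 library gave 55 to 61 higher and 16 to 22 lower. With the replicate number as a block, 60 were higher and 21 lower. Same-number correlations ran from -0.237 to 0.312, and 2 of 9 libraries correlated best with their own number. These values show no clear pairing by number but cannot exclude one, since the labels do not say what the numbers stand for. Of the 101 tested members, 64 kept their call under every alternative, 37 changed between a call and none in at least 1, and 0 reversed. Without the 29 members that passed the filter only through NFAT2-CA, a choice made after seeing the data, the counts were 43 higher and 14 lower.

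The 107 members became 96 under TMM factors, 100 under quantile normalization (96 shared), 105 with group medians, 105 when overlapping libraries were barred, 50 with thresholds of 2 and 0.5, and 105 to 113 when 1 library was left out. The share of higher calls among all calls in that contrast was 42.5% as scaled and 47.4% under TMM factors. Chit1 had a log2 fold change of 0.12 with a pseudocount of 5. Depth limits what can be read of Control levels under about 3 reads, which touches Chit1, Trpa1, Zan, Scel, Bmp2, Slc13a3 and Gstm1.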
